A study of Mus musculus with 26 samples.

Results

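The 10 genes described here are Fos, Fosb, Jun, Junb, Jund, Atf3, Egr1, Socs3, Zfp36 and Dusp1, the AP-1 genes and other immediate-early genes of the mouse retinal pigment epithelium and choroid (RPE/choroid). They were chosen by name, with earlier results of these data known, and were found as 10 of the 16426 genes in the single-cell RNA sequencing (scRNAseq) counts. They were also 10 of the 17623 genes in each of the bulk RNA sequencing tables. Their levels were followed in cells dissociated for scRNAseq, in whole tissue with and without Ihh in endothelial cells (ECs), and in cultured GLI1+ cells with and without a Hedgehog agonist.

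The scRNAseq libraries held cells of 3-month-old mice, 1 library of B6129PF1/J and 1 of C57BL/6J, each pooled from a male and a female eye. The tissue was digested with enzymes, stained, and sorted for nucleated, living cells before capture. Whole RPE/choroid came from 6-month-old C57BL/6J mice, 3 libraries each of Ihh+/+ and of Ihh iΔEC/iΔEC, in which a floxed Ihh was deleted by the EC driver Cdh5-CreERT2. Both genotypes carried the driver and had received tamoxifen 12 weeks earlier. The GLI1+ cells were sorted by their GFP from choroid of female Gli1GFP/+ mice younger than 3 months. According to the paper, this reporter line was made in SWR/J and then outcrossed to BALB/c. The sorted cells were pooled, expanded over passages and starved of serum. They were then given the Smoothened agonist SAG at 100 nM or its vehicle DMSO for 24 h, in 3 replicates each. In all, 26 samples belong to the series, and 12 libraries of ECs sorted from other organs were not analysed here.

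Immediate-early genes are transcribed within minutes of a stimulus, without new protein synthesis, through factors already present in the cell. Fos and Jun proteins pair through leucine zippers to form AP-1, a transcription factor that binds short palindromes in target genes. The proteins of several other members act back on the signal, and the messengers of many of them are quickly degraded. Dissociation of tissue at warm temperature is a known stimulus for these genes.

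The depth of the single-cell data was 17168578 unique molecular identifiers (UMIs) over 3637 cells in the B6129PF1/J library, and 15230413 UMIs over 3928 cells in the other. The libraries shared 22 cell barcodes. All 31 markers of 7 cell types were highest in the clusters that carry the name of their type, in both libraries. Of the bulk libraries, only the averages of each group were used, which carry no spread between mice or cultures. No test between groups was therefore made, and the read depth is unknown. Ihh averaged 1.53 FPKM (fragments per kilobase of transcript, scaled to the mapped fragments of the library) in Ihh+/+ tissue and 0.454 FPKM in Ihh iΔEC/iΔEC tissue. Gli1, a target of the pathway, averaged 9.40 and 3.15 FPKM in the same groups, and 0.028 FPKM with DMSO and 3.65 FPKM with SAG in culture.

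The stretches around the start sites are shown for the members whose tissue averages differed more than 2 times between genotypes, Fos, Fosb, Jun and Socs3, which were lower after Ihh deletion, and Atf3, which was higher. RefSeq promoter windows of 250 bases before and 50 bases after the start were at hand for 9 of the 10 members in GRCm38.p6, and Egr1 was not among them. The windows are chr12:85473640-85473939 (+) for Fos, chr7:19309996-19310295 (-) for Fosb, chr4:95052173-95052472 (-) for Jun, chr11:117969317-117969616 (-) for Socs3 and chr1:191183284-191183583 (-) for Atf3. The last of these and the Socs3 window lie inside the GENCODE M21 spans of their genes, chr1:191170296-191218039 and chr11:117966079-117970047. Capitals mark matches to the motifs named after the sequences, which are written 5′ to 3′ on the strand of the gene.
Fos: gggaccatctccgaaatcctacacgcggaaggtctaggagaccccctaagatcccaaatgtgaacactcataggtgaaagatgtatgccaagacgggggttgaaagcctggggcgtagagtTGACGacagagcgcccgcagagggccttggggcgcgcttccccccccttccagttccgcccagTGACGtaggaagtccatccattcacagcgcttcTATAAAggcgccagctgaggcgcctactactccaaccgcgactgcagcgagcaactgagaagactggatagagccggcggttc
Fosb: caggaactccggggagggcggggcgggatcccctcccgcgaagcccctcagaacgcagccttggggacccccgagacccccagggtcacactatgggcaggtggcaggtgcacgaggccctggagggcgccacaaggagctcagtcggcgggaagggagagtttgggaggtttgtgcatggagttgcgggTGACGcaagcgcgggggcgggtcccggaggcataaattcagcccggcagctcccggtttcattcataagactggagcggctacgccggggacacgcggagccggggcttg
Jun: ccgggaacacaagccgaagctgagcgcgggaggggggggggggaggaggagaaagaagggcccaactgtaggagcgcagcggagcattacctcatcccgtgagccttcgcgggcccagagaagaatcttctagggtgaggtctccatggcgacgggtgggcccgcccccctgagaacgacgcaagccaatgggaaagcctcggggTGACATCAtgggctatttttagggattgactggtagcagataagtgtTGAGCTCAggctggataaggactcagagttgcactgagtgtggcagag
Socs3: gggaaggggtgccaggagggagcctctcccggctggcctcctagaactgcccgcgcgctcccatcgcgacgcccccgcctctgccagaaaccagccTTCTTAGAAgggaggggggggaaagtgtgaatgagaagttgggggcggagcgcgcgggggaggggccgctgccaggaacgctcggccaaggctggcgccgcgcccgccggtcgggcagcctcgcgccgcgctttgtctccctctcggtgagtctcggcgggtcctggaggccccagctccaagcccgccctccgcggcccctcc
Atf3: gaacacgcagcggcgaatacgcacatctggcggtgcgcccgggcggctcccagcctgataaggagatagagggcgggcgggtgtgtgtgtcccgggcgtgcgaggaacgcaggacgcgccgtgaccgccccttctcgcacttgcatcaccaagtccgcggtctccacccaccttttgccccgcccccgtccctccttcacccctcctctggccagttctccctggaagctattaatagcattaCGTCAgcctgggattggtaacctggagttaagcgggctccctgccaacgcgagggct

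The core of the cyclic AMP response element, TGACG, read on both strands, stood in 5 of the 9 windows (55.6%), those of Atf3, Dusp1, Fos, Fosb and Junb, and in 20.8% of the 32851 windows of all genes. In Fos it began at positions -129 and -66, counted from the start as 1 with no position 0, and a TATAAA box followed at -33. In Fosb it began at -60, and in Atf3 it lay on the other strand at -7. The 8-base form TGANNTCA, which takes in the full element TGACGTCA, stood in 3 windows (Dusp1, Jun and Jund) and in 14.1% of all windows. Jun held it at -45 and at 3. The Jund window, chr8:70697489-70697788 (+), ends before the GENCODE M21 span of its gene, chr8:70698949-70700616. The full element was in Dusp1 alone among the members, against 1.79% of all windows. The 7-base AP-1 site TGANTCA was in 0 of the 9 windows and in 7.81% of all windows. A STAT site, TTCNNNGAA, stood in Socs3 at -154 and in Zfp36, against 8.3% of all windows. Zfp36 also held a serum response element (CArG box), found in 1.63% of all windows, and TATAAA was in Fos and Junb, against 13.6%. In Junb it began at position 1, the annotated start itself. These are matches of letters only.

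In the dissociated cells, the 10 genes together took 147.6 UMIs of every 10,000 in B6129PF1/J (95% Poisson interval 147.1 to 148.2) and 155.1 in C57BL/6J (154.5 to 155.7). All intervals given here cover counting error only, since there was 1 library per strain. In what follows, pairs of values are in the order B6129PF1/J, then C57BL/6J, and levels are UMIs per 10,000. The summed level was lowest in RPE cells, at 7.45 (7.14 to 7.76) and 6.86 (6.48 to 7.26). It was highest in stromal cluster 8, at 231.1 (227.3 to 234.9) and 257 (252.5 to 261.6). The authors' clusters divide the stroma into clusters 5 to 8, and these together reached 194.5 and 194.4, which was 26.1 times (25.1 to 27.3) and 28.3 times (26.8 to 30.0) the RPE level.

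Between these ends lay the vascular and neural cells. ECs fall into 3 clusters by their level of Kdr, the main VEGF receptor, and the summed level was 138 and 120.3 in Kdr-high ECs, 182.8 and 187.3 in Kdr-med ECs, and 194.8 and 214.5 in Kdr-low ECs. Smooth muscle cells were at 183.6 and 180.8. The Schwann cells of clusters 12 and 13 were at 191.4 and 177.6, and at 210.1 and 220.7. The 3 lowest cell types were the same in both libraries, with hematopoietic cells at 60.8 and 62.9 and melanocytes at 11.7 and 28.9 beside the RPE. The melanocyte values rest on 16 and 26 cells, and those of Schwann cluster 13 on 30 and 46 cells. Within the stroma, cluster 7 was the lowest, at 108.5 and 66.8, and its interval in C57BL/6J (64.7 to 68.9) overlapped that of the hematopoietic cells (61 to 65).

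**Figure D1:**
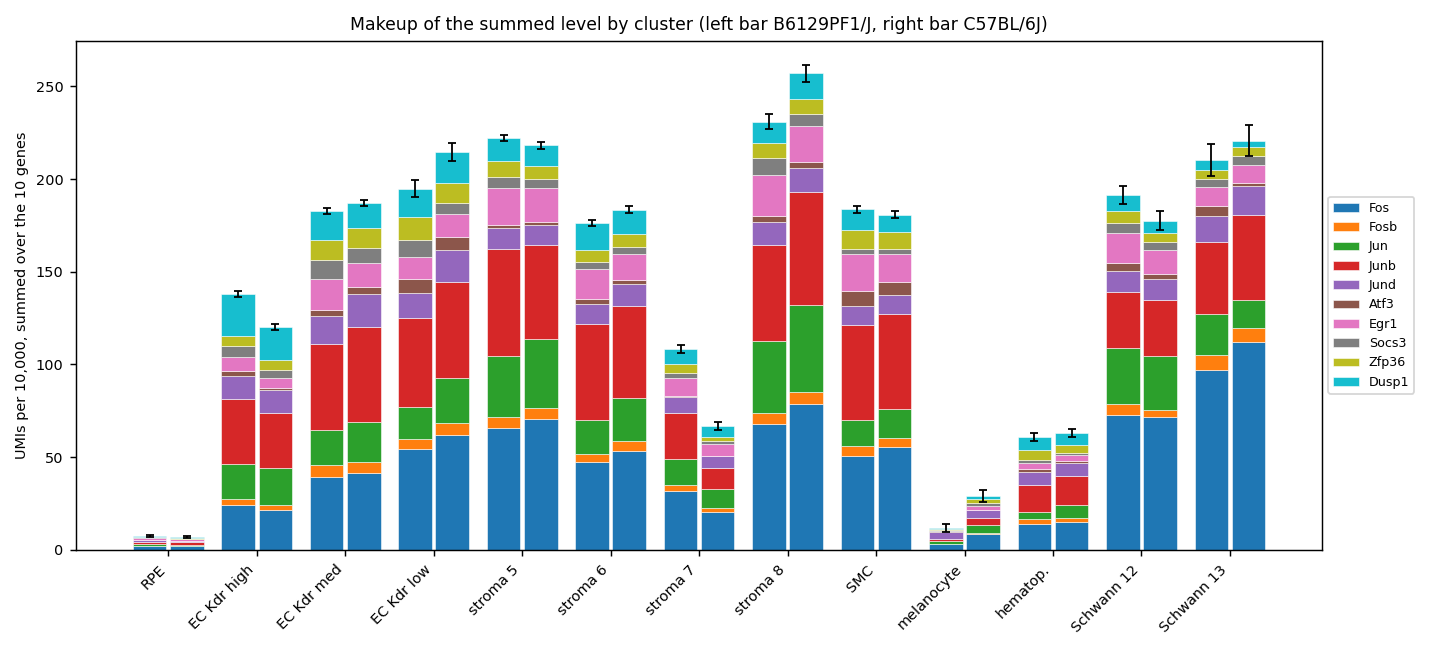
Stacked bars of the level of the 10 genes in UMIs per 10,000, coloured by gene, for each cluster (left bar B6129PF1/J, right bar C57BL/6J), with exact 95% Poisson intervals of the sum. RPE (7.45 and 6.86) and melanocytes (11.7 and 28.9) lie far below the vascular and stromal clusters, and stromal cluster 8 (231.1 and 257) is the highest.

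Fos and Fosb encode the partners that Jun proteins need to form the FOS-JUN type of AP-1. Fos was at 39.2 and 43.6 over all cells, and at 1.95 and 1.93 in the RPE. It reached its highest level in Schwann cluster 13, at 97.2 (91.4 to 103.3) and 112.4 (106.5 to 118.6), above the next cluster without overlap of the intervals in both libraries. Among ECs, Fos was at 24.4 and 21.6 in Kdr-high, 39.5 and 41.6 in Kdr-med, and 54.5 and 62.2 in Kdr-low cells. The EC clusters thus had the same order in both libraries, with the highest Fos level where Kdr was lowest.

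Fosb was the weaker of the pair, at 4.15 and 4.24 over all cells and 0.200 and 0.132 in the RPE. Its highest level was again in Schwann cluster 13, at 7.63 and 7.43, but the interval overlapped that of the next cluster in both libraries. No Fosb UMI was found in the B6129PF1/J melanocytes, which allows a level of up to 0.338, and the C57BL/6J melanocytes were at 0.867.

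The Jun family supplies the other AP-1 partner, and its members can also pair with each other. Jun, the founding member, was at 17.9 and 21.3 over all cells and was highest in stromal cluster 8, at 38.7 and 47.2, followed by stromal cluster 5 at 33.1 and 37.5. Junb, which is often antagonistic to Jun, was nearly as abundant as Fos, at 38 and 39.2. Its leading cluster was not the same in both libraries, being stromal cluster 5 in B6129PF1/J (57.7) and stromal cluster 8 in C57BL/6J (61.0). Jund, the member least dependent on stimuli, was at 9.67 and 11 and led in Kdr-med ECs at 15.1 and 17.9, with overlap of the next cluster. Over clusters 2 to 9, Jund ran from 8.63 to 15.1 in B6129PF1/J, a narrower range than the 24.4 to 67.9 of Fos or the 14 to 38.7 of Jun.

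Atf3 encodes a stress-induced partner of the same zipper family that mostly represses. It was the least abundant member, at 2.79 and 2.67. Smooth muscle cells (8.16 and 7.29) and Kdr-low ECs (7.67 and 7.01) had the highest Atf3 levels, and their intervals overlapped. In stromal cluster 5 it was 1.93 and 1.72, although that cluster was among the highest for Fos and Jun. Atf3 had no UMI in the C57BL/6J melanocytes, which allows a level of up to 0.289.

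Egr1 encodes a zinc-finger factor induced through serum response elements, and was at 13 and 11.4. It led in stromal cluster 8, at 22.4 and 19.6, and next in stromal cluster 5, at 20.1 and 18.1. Kdr-high ECs had 7.49 and 5.30, the lowest of the 3 EC clusters in both libraries.

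The remaining members limit signals. Dusp1, a phosphatase that switches off MAP kinases, was at 11.5 and 10.9 and differed from the others in being highest in Kdr-high ECs, at 22.8 (22.2 to 23.5) and 18.0 (17.4 to 18.6). In C57BL/6J that interval overlapped the one of Kdr-low ECs, at 16.8 (15.5 to 18.3). Dusp1 made up 16.5% and 15.0% of the summed UMIs of the 10 genes in Kdr-high ECs, and 2.52% and 1.44% in Schwann cluster 13. Fos, in turn, made up 17.7% and 18.0% of the sum in Kdr-high ECs and 46.3% and 51.0% in Schwann cluster 13. The makeup of the sum therefore differed between cell types by more than counting error, with the same order in both libraries.

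Socs3, the feedback inhibitor of cytokine signals through STAT3, was at 4.69 and 4.26. Its highest levels were in Kdr-med ECs, at 10.2 and 8.12, with overlap of the Kdr-low interval in B6129PF1/J but not of the next cluster in C57BL/6J. Zfp36, whose protein speeds the decay of AU-rich messengers, was at 6.76 and 6.63 and led in Kdr-low ECs, at 12.1 and 10.7, with overlap of Kdr-med ECs in both libraries. Socs3, Zfp36 and Dusp1 therefore led in ECs, as did Jund among the AP-1 genes. Fos, Fosb, Jun, Junb and Egr1 led in stromal or Schwann clusters, and Atf3 in smooth muscle.

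**Figure D2:**
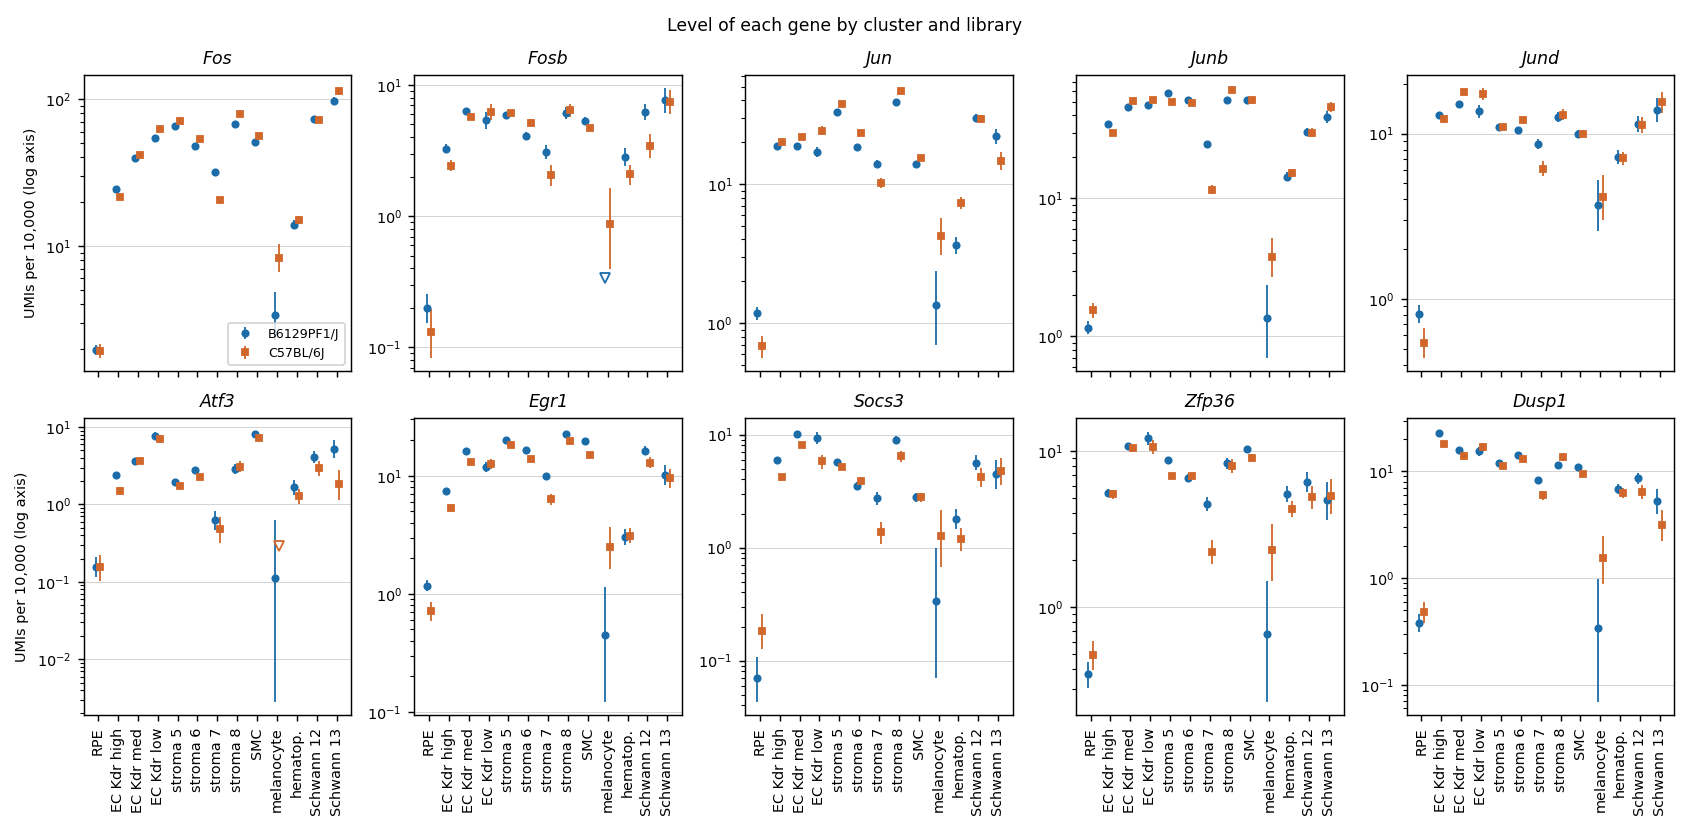
The level of each of the 10 genes in UMIs per 10,000 (log axis) in the 13 clusters of both libraries, with exact 95% Poisson intervals and open triangles at the level that 3 counts would give for the 2 counts of 0. The RPE points lie below those of the vascular, stromal and Schwann clusters for every gene, for example 1.95 and 1.93 against 97.2 and 112.4 in Schwann cluster 13 for Fos.

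In RPE cells, each member stood at a small part of its level over the whole library, from 1.49% (Socs3) to 8.98% (Egr1) in B6129PF1/J and from 3.10% (Fosb) to 7.42% (Zfp36) in C57BL/6J. The medians were 5.23% and 4.43%. The same measure was 0 to 14.2% (median 1.86%) and 0 to 15.2% (median 2.84%) for 18 markers of endothelial, stromal, smooth muscle and hematopoietic cells, which RPE cells should lack. For 10 housekeeping genes it was 29.7 to 134.5% (median 52.2%) and 29.0 to 137.8% (median 50%). The members thus lay within the range of the markers of other cells and below that of the housekeeping genes, with medians above those of the markers. In B6129PF1/J, Egr1 (8.98%) and Jund (8.41%) were above every one of these markers but the smooth muscle gene Acta2 (14.2%). How much of their UMIs in RPE cells came from RNA free in the suspension was not tested.

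The share of cells with a UMI gave the same picture after each cell was thinned to 1700 UMIs, a depth every cell reached. Fos was found in 18.4% of 407 RPE cells (exact binomial 95% interval 14.8 to 22.5) and in 15.8% of 374 (12.2 to 19.9), or 38.6% and 26.2% before thinning. The smooth muscle gene Acta2 was found in 23.1% and 28.9% of the thinned RPE cells, and the stromal gene Dcn in 3.44% and 5.08%. The EC gene Cldn5 was found in 2.21% and 4.28%. The Fos share in RPE was thus below that of Acta2 and above those of Dcn and Cldn5. At a minimum of 2 UMIs, Fos was found in 5.16% and 3.21% of RPE cells and Acta2 in 3.69% and 6.15%, so that their order differed between the libraries. No expression of Fos in RPE cells is read from these shares. RPE cells were not shallow, with median depths of 5263 and 3406.5 UMIs against 3516.5 and 3037 in stromal cluster 5.

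In the clusters other than RPE and melanocytes, Fos was found in most cells. Melanocytes had it in 25% of 16 and 46.2% of 26 thinned cells, or 68.8% and 53.8% before thinning. The thinned share was 95.2% and 89.8% in stromal cluster 5, 98.1% and 91.4% in smooth muscle cells, 86.5% and 67.3% in Kdr-high ECs, and 100% and 97.8% in Schwann cluster 13. Before thinning these shares were 97.3% and 92.3%, 99.5% and 93.5%, 89.2% and 74.0%, and 100% and 97.8%. Atf3 separated the same types differently, being found in 64.3% and 56.2% of smooth muscle cells but in 23% and 19.9% of the cells of stromal cluster 5 after thinning, and in 84.2% and 73.7% against 35.3% and 29.2% before it. Socs3 was found in 51.4% and 40.5% of Kdr-high ECs and 34.1% and 35.4% of smooth muscle cells after thinning, and in 74.1% and 56.3% against 59.5% and 55.7% before it.

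Most members were found more often in cells that also had Fos. Among C57BL/6J smooth muscle cells, 97.4% of the 423 thinned cells with Fos also had Junb, and 22.5% of the 40 cells without Fos had it. For Egr1 in the same cells the shares were 85.6% and 10%, and for Dusp1 72.1% and 25%. In stromal cluster 5 of that library, Socs3 was found in 53.1% of the 753 cells with Fos and in 6.98% of the 86 without. Kdr-high ECs were the exception for Dusp1, which was found in 95.2% of the 271 cells with Fos and still in 70.5% of the 132 without. In B6129PF1/J fewer cells lacked Fos and the contrast was weaker for several members. Junb was found there in 98.1% of the 366 smooth muscle cells with Fos and in 85.7% of the 7 without, and in stromal cluster 5 in 98% of 807 and 82.9% of 41. Dusp1 was found in 94.1% of the 320 Kdr-high ECs with Fos and in 88% of the 50 without. Socs3 in stromal cluster 5 differed more, at 52% and 2.44%. These shares describe cells within each library and carry no test.

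Cells with few UMIs of these genes occurred in nearly every cluster. The sum of the 10 genes in a cell thinned to 1700 UMIs had a median of 0 in RPE in both libraries, 37 in stromal cluster 5 in both, 31 in smooth muscle cells in both, 40 and 46 in stromal cluster 8, and 9 and 7 in hematopoietic cells. Outside RPE and melanocytes, 350 of 3214 cells (10.9%, 9.83 to 12.0) and 811 of 3528 cells (23.0%, 21.6 to 24.4) had a sum of at most 8. The limit was set after the values were seen and cuts a range, with 275 and 325 cells between 6 and 11. The share of such cells was higher in C57BL/6J in 11 of 11 clusters, for example 13% and 34.2% in Kdr-high ECs and 21.1% and 55.7% in stromal cluster 7. Strain and library cannot be told apart here.

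The low cells also had less of other immediate-early genes. In a list of 22 such genes that holds none of the 10, the level was 40.1 in the low cells and 90.1 in the rest in B6129PF1/J, and 30.6 and 90.7 in C57BL/6J. For 12 heat shock genes it was 65.1 and 77.6, and 58.5 and 74.5, and for 10 housekeeping genes 144 and 135.4, and 160.4 and 160.7. These values pool clusters of different housekeeping level. Within stromal cluster 5, the housekeeping level was lower in the low cells, at 103.9 and 118, and 111.4 and 134.3. It was higher in low cells only in smooth muscle and hematopoietic cells of both libraries and in stromal cluster 7 of B6129PF1/J. The low cells had a lower median depth before thinning, 3372 against 3865.5 UMIs and 2676 against 3292 UMIs. Their median share of mitochondrial UMIs was 3.40% against 3.16%, and 3.53% against 3.00%. The part of depth and RNA quality in the low sums was not tested.

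**Figure D3:**
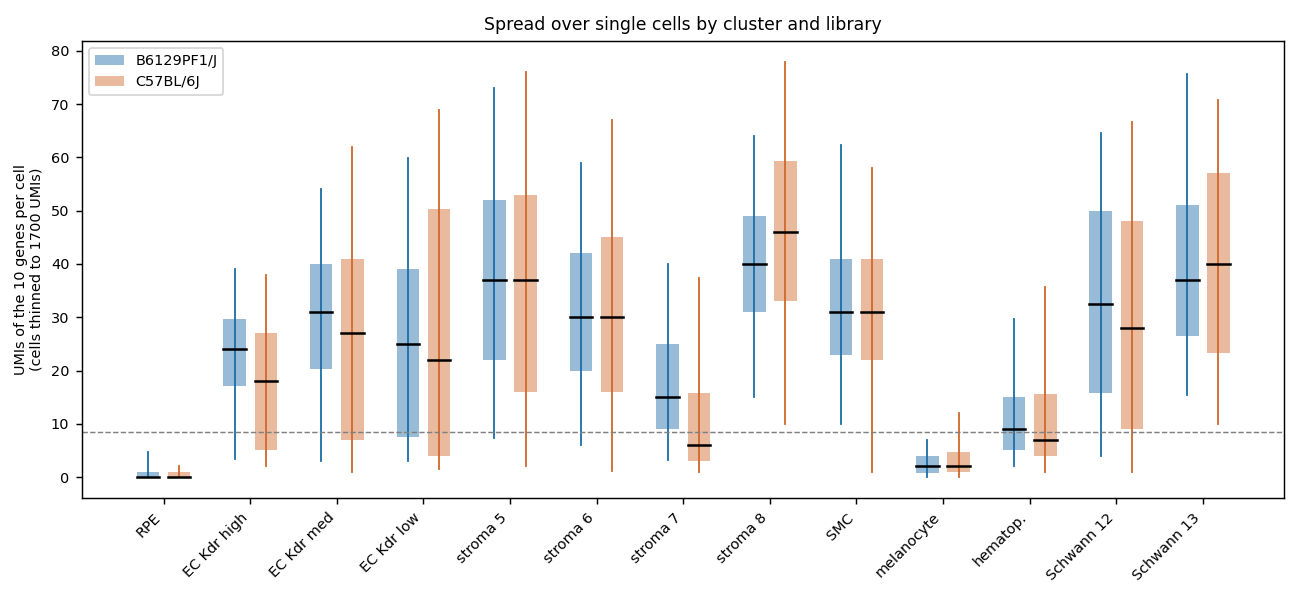
The summed UMIs of the 10 genes per cell, after each cell was thinned to 1700 UMIs, by cluster and library, with black bars for medians, boxes for the quartiles, lines from the 5th to the 95th percentile and a dashed line between 8 and 9 UMIs. The median is 0 in RPE and 40 and 46 in stromal cluster 8, and the medians of stromal cluster 7 are 15 (B6129PF1/J) and 6 (C57BL/6J).

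Over all cells the libraries had similar levels. The ratio of B6129PF1/J to C57BL/6J ran from 0.843 (0.830 to 0.857) for Jun to 1.15 (1.12 to 1.17) for Egr1, and 0 of the 10 members were past 1.5 times either way, against 8.94% of the 12716 genes with at least 50 UMIs in the libraries. Within clusters, 20 of 124 pairs of a member and a cluster were past 1.5 times, against 11.3% of all such pairs, and 15 of the 20 were higher in B6129PF1/J.

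Stromal cluster 7 held 6 of these pairs, all higher in B6129PF1/J, where 5.99% of the genes of that cluster were past 1.5 times higher. They were Junb (24.7 against 11.5, ratio 2.14, 1.96 to 2.33), Zfp36 (2.02), Socs3 (2.01), Egr1 (1.57), Fos (1.56) and Fosb (1.52). The share of low cells moved with this difference, as given above. In Schwann cluster 13, Atf3 was 2.84 times (1.71 to 4.88) and Dusp1 1.67 times (1.09 to 2.59) as high in B6129PF1/J, where 5.79% of genes were past 1.5 times higher. These ratios rest on 56 and 22 UMIs of Atf3, and on 57 and 38 UMIs of Dusp1. Hematopoietic cells had less Jun in B6129PF1/J, 3.64 against 7.34 (ratio 0.496, 0.417 to 0.587), in a cluster where 18.6% of genes were past 1.5 times lower. With 1 library per strain, none of these differences has a replicate check.

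The levels of the 10 genes went together over the 13 clusters of both libraries. Pearson's correlation of each with the sum of the 10, on log2(UMIs per 10,000 + 0.1) over 26 pairs of cluster and library, ran from 0.846 for Atf3 to 0.986 for Junb. The sum contains each member, and the pairs share libraries, depth and the low values of RPE and melanocytes, so these are descriptions. Outside the lists of related genes, genes among those with the most similar pattern were Ddx5 (0.944), Hnrnpdl (0.927), Mat2a (0.926) and Pnrc1 (0.915). Ddx5, an RNA helicase, was at 4.81 and 3.46 in RPE and between 8.55 and 15.4, and 8.17 and 14.2, in clusters 2 to 9. Its span between RPE and the other cells was therefore much narrower than that of the members.

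From whole RPE/choroid, RNA was extracted right after dissection with no enzymatic digestion, and the 10 genes summed to 608.7 FPKM in Ihh+/+ and 385.2 FPKM in Ihh iΔEC/iΔEC tissue, or 0.288% and 0.177% of all FPKM. All values are averages of 3 libraries. Fos averaged 102 FPKM in Ihh+/+ and 32.2 FPKM in Ihh iΔEC/iΔEC tissue, a ratio of 3.17. Its relative Fosb averaged 19.6 and 2.27 FPKM, 8.61 times lower after deletion. Jun averaged 62.3 and 18.7 FPKM, 3.34 times lower. These were the AP-1 genes with the widest gap. TGACG also stood in the windows of Junb, Dusp1 and Atf3, and TGANNTCA in those of Jund and Dusp1. None of these was past 2 times lower, and the Jund window ends before its gene. A part of these motifs in the gap was not tested.

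Socs3 was the fourth member past 2 times lower, at 16.2 and 4.81 FPKM. Atf3 went the other way, from 3.39 to 8.24 FPKM, 2.44 times higher after deletion. In all, 4 of 10 members were past 2 times lower, against 0.745% of 11411 genes with at least 1 FPKM, and 1 of 10 was past 2 times higher, against 1.10%. The paper already lists Jun and Socs3 as at least 2 times lower in this comparison, with a limit on the adjusted p-value as well. Its text names neither Fos nor Fosb among those genes. The members were also chosen with earlier results of these data known, so these counts are descriptions only. The median log2 ratio of the members was -0.78, and that of all genes -0.04. The other members stayed within 2 times. Junb averaged 125.1 and 82.2 FPKM, Jund 55.9 and 35.1, and Zfp36 76.5 and 41.1, all lower after deletion. Egr1 (102.5 and 111.5 FPKM) and Dusp1 (45.1 and 49.1 FPKM) were close to equal.

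The sources of cells moved with this comparison. All 5 photoreceptor markers, which belong to the adjacent retina, were past 2 times lower after deletion (median log2 ratio -1.39). The median log2 ratio was -0.73 for 4 melanocyte markers, -0.67 for 6 stromal markers, -0.25 for 5 EC markers and 0.27 for 4 RPE markers. In bulk tissue, fewer cells of a type and less RNA per cell cannot be told apart. With each group scaled to its stromal markers, which was chosen after the data were seen, Fos was 2.03, Fosb 5.52, Jun 2.14 and Socs3 2.16 times lower, and Atf3 3.80 times higher, after deletion. On that scale Junb and Jund were nearly equal between genotypes (ratios 1.03 and 0.979), and Egr1 and Dusp1 were both 1.70 times higher. The part of the retina in the result was not tested.

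Relatives of the 10 genes were read with the same minimum of 1 FPKM in the higher group, which Egr2, Egr3, Nr4a2 and Dusp5 reached after deletion alone. Of 8 other AP-1 partners and bZIP genes with at least 1 FPKM, Fosl2 alone was past 2 times, at 2.07 and 9.76 FPKM, higher after deletion. Of 8 EGR, NR4A and KLF factors, Egr2 (0.728 and 1.61 FPKM), Egr3 (0.518 and 2.43) and Nr4a2 (0.774 and 4.30) were past 2 times higher. Of 18 other immediate-early genes, Btg2 (9.34 and 22.4), Csrnp1 (2.14 and 8.01), Plk3 (1.73 and 3.48) and Per1, a clock gene (10.1 and 27.3), were past 2 times higher.

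Among the genes of the related lists with at least 1 FPKM, the one nearest to 2 times lower was Ier2, at 73.5 and 37.1 FPKM (1.98 times lower). Dusp5, a relative of Dusp1 that acts on ERK, was at 0.298 and 2.15 FPKM, 7.23 times higher, as 1 of 9 such phosphatases. Cish, a relative of Socs3, was at 4.51 and 9.15 FPKM and was the only one of 14 genes of the SOCS and IL-6 route past 2 times. Of 12 heat shock genes, 11 genes of the ZFP36 and NF-kB feedback list, 11 genes of the MAP kinase route and 9 housekeeping genes, 0 were past 2 times.

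**Figure D4:**
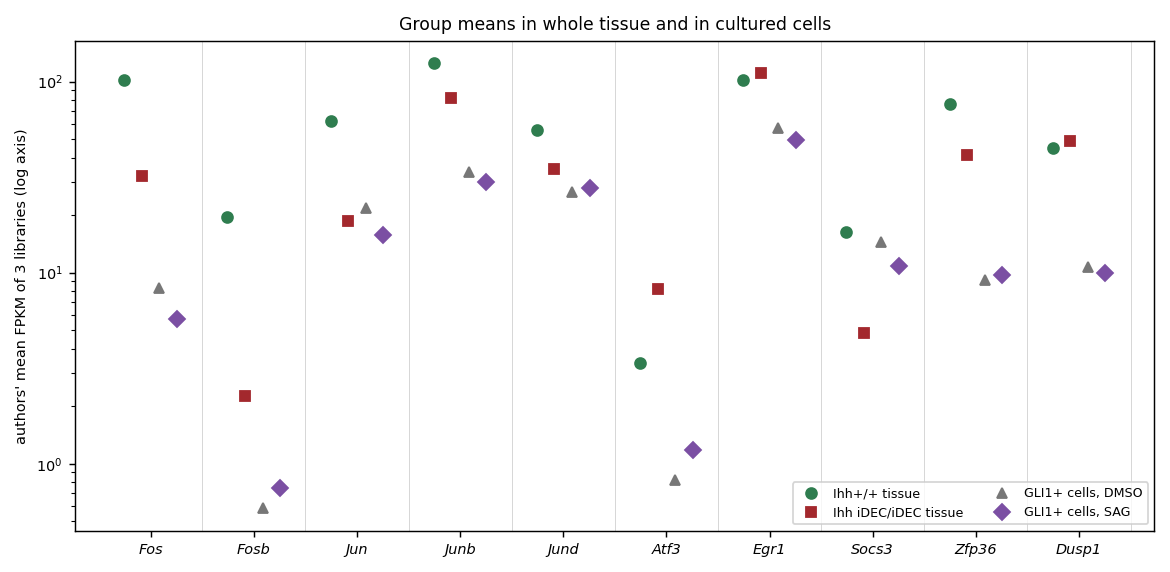
The average FPKM (log axis) of each of the 10 genes in Ihh+/+ and Ihh iΔEC/iΔEC tissue and in GLI1+ cells with DMSO and SAG, each point an average of 3 libraries with no error known. Fos (102 against 32.2 FPKM), Fosb (19.6 against 2.27), Jun (62.3 against 18.7) and Socs3 (16.2 against 4.81) are lower after Ihh deletion, and the DMSO and SAG points lie close together.

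In cultured GLI1+ cells, the averages of the pathway's own targets were higher with the agonist. Those of the 9 members with at least 1 FPKM stayed within 2 times, as did most genes (0.387% were past 2 times higher and 1.18% lower). Ptch1, the Hedgehog receptor, averaged 1.13 FPKM with DMSO and 10.1 FPKM with SAG, and Hhip, a decoy for Hedgehog ligands, averaged 0.368 and 1.28 FPKM. Fos averaged 8.36 FPKM with DMSO and 5.69 FPKM with SAG, and Jun 21.9 and 15.8 FPKM. Socs3 averaged 14.5 and 10.8 FPKM, also lower with SAG. These were the members with the lowest ratios of SAG to DMSO, at 0.681, 0.725 and 0.742.

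The other members differed less or were rare. Egr1 averaged 57 and 49.4 FPKM, Junb 33.8 and 29.9, Jund 26.5 and 27.8, Dusp1 10.7 and 9.99, and Zfp36 9.11 and 9.70. Atf3 averaged 0.826 and 1.18 FPKM, and Fosb 0.583 and 0.744 FPKM, under the minimum of 1 FPKM. Of the 9 members above it, 0 were past 2 times in either direction, against 0.387% of 10325 genes higher and 1.18% lower. The only gene of the related lists past 2 times was the chemokine gene Ccl2, at 2.93 FPKM with DMSO and 1.08 FPKM with SAG. Only the averages were used, which carry no spread, so differences under 2 times are not judged here.

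The dissociated cells held far more of these messengers, relative to other genes, than undigested Ihh+/+ tissue. UMIs of both libraries, per 1000000, were set against FPKM of the tissue, and each log2 ratio was centred on the median of 10524 genes. The tables were normalised separately, and assay, strain, age and cell makeup differ along with digestion, so that these cannot be told apart. Of the 10 members, 8 were past 4 times higher in cells, against 6.33% of all genes, and 0 were past 4 times lower, against 7.54%. The median centred log2 ratio was 2.84 for the members and 0 for all genes by construction, with an SD over genes of 1.4.

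Atf3 stood out in this comparison, with a centred log2 ratio of 4.46, or 22.1 times the median gene. It ranked at the 29.9th percentile of genes by its FPKM in tissue and at the 95.3rd percentile by its UMIs in cells. Fos followed at 3.47 (11.1 times), then Jun at 3.11, Junb at 3.08, Socs3 at 2.92, Dusp1 at 2.76, Fosb at 2.55 and Jund at 2.34. Egr1 (1.71) and Zfp36 (1.26) stayed under 4 times. Fos, Junb and Egr1 were already abundant in tissue, at the 97.5th, 98.1st and 97.5th percentiles of FPKM.

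Other lists give the frame for these values. Of 18 other immediate-early genes, 10 were past 4 times higher in cells (median 2.50), as were 4 of 5 EGR, NR4A and KLF factors (2.88), 3 of 12 heat shock genes (1.41) and 2 of 9 housekeeping genes (0.40). Cell makeup moved with the comparison too. The median was 2.45 for 5 EC markers and 3.69 for 3 smooth muscle markers, 0.46 for 6 stromal markers, -1.71 for 4 RPE markers and -3.91 for 4 melanocyte markers. The part of cell makeup in the members' ratios was not tested.

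In culture the members stood below tissue. Cultured GLI1+ cells with DMSO, which were lysed in the plate after serum starvation, had 183.2 FPKM of the 10 genes, or 0.0776% of all FPKM, against 608.7 FPKM in Ihh+/+ tissue. Genes needed at least 1 FPKM in culture or in tissue. Of the 10, 5 were past 4 times lower in culture, against 13.4% of 11651 genes, and 0 were past 4 times higher, against 5.66%. Fosb (0.583 FPKM in culture) and Atf3 (0.826 FPKM) met the minimum through tissue alone, so they could not be counted as higher. With a pseudocount of 1 FPKM, 4 members were past 4 times lower. Fosb was lowest, with a centred log2 ratio of -5.14, before Fos (-3.68), Zfp36 (-3.14), Dusp1 (-2.14) and Atf3 (-2.10). Junb (-1.96), Jun (-1.58), Jund (-1.15), Egr1 (-0.92) and Socs3 (-0.23) were nearer to tissue.

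Within the AP-1 genes the ratios thus ran from -5.14 for Fosb to -1.15 for Jund, which was itself lower in culture, at 26.5 FPKM against 55.9 FPKM in tissue. The median was -2.03 for the members, against 0.52 for 18 other immediate-early genes and -1.16 for 8 dual-specificity phosphatases. Culture and tissue also differ in cell makeup, since all 5 EC markers were past 4 times lower in culture (median -7.66) and the 6 stromal markers had a median of 1.51. Strain differs as well and cannot be told apart from culture.

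**Figure D5:**
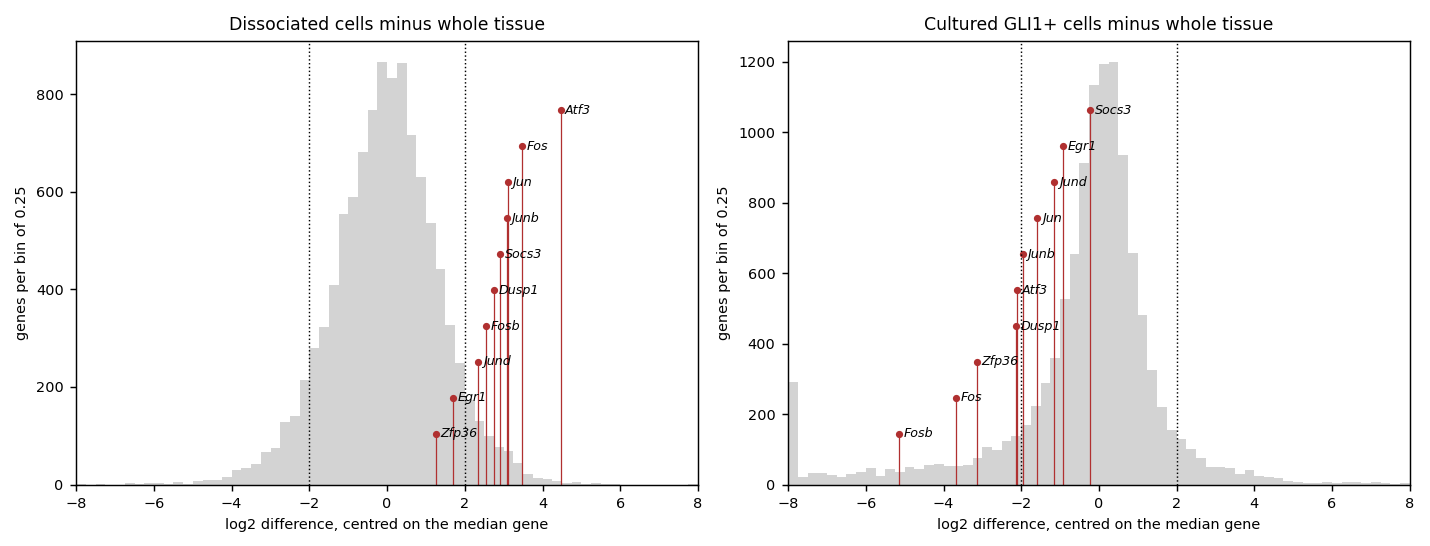
Histograms of the centred log2 ratio of all genes, for dissociated cells over Ihh+/+ tissue (10524 genes) and for cultured GLI1+ cells with DMSO over the same tissue (11651 genes), with the 10 genes marked by lines of arbitrary height, dotted lines at 4 times, and genes beyond the axis counted in the end bins. The members lie on the high side in the first, from 1.26 (Zfp36) to 4.46 (Atf3), and on the low side in the second, from -5.14 (Fosb) to -0.23 (Socs3).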

How the data were processed

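According to the paper's methods, the authors aligned the scRNAseq reads to mm10 with Cell Ranger, filtered cells and genes in Seurat 2.1, and deposited raw UMI counts by gene and cell. The fraction of mitochondrial UMIs per cell and the cluster numbers were deposited by the authors and used as given. The cell type names were assigned here by matching the cluster numbers to those in the paper. No cells were taken out here as doublets. Both deposited libraries hold fewer cells than the paper reports, and the cluster sizes differ from those it gives, for a reason that is unknown. For the bulk libraries the authors ran STAR 2.4.0f1 and Cufflinks 2.0.2, and FPKM were deposited as averages of 3 libraries per group. The same tables hold the authors' fold changes and p-values, which were not used.

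UMIs were summed per gene, cluster and library and given per 10,000, with exact Poisson 95% intervals, and shares of cells with exact Clopper-Pearson 95% intervals. Ratios of sums have exact conditional intervals. The limit for a count of 0 was set at 3 counts. Cells were thinned to 1700 UMIs where shares were compared. Folds of 1.5 between libraries (at least 50 UMIs over both), 2 in FPKM (at least 1 FPKM in the higher group) and 4 between assays were used without a pseudocount. The planned limma fits need values of single libraries and were not run. Besides the members, genes were named when they were among the 3 most abundant of a list, past 2 times in a bulk comparison, among the 5 with the most similar pattern, markers, or checks of the groups. Some of these genes are not reported here. The members and the 9 lists of related genes were chosen with earlier results of these data known. The work was done in Python 3.11.15 (scipy 1.17.1, numpy 2.4.6, pandas 2.3.3, matplotlib 3.10.9). The fold rule, the centred difference and the Poisson intervals were tested on simulated counts. The share of Fos before and after thinning was compared in cells of the B6129PF1/J library.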

Additional observations from a re-analysis of the deposited data

How the results depend on the processing

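Of 109 recomputed values, 90 stayed within the limits set for them and 19 moved. Reversal of direction was not checked separately. The ratio of the summed level in stromal clusters 5 to 8 to that in RPE (26.1 in B6129PF1/J and 28.3 in C57BL/6J) was 32.2 and 35.6 with each cell thinned to 1700 UMIs, 31.4 and 34.4 as a mean over cells, 28.9 and 25.7 without the 5% of cells with most UMIs, and 17.2 and 18.2 relative to the housekeeping genes, which was chosen after seeing the data. The share of cells with Fos (18.4% and 15.8% in RPE, 95.2% and 89.8% in stromal cluster 5) was 5.16% and 3.21% in RPE and 92.8% and 84.9% in stromal cluster 5 at a minimum of 2 UMIs, and 38.6% and 26.2%, and 97.3% and 92.3%, without thinning. At a fold of 2 in place of 1.5, the 20 pairs of a member and a cluster past the fold between libraries became 9, and equal cluster weights do not apply to single pairs. At a fold of 1.5 in place of 2, the 4 members lower after Ihh deletion became 7. At a fold of 2 in place of 4, the 5 members lower in culture than in tissue became 8. No paired analysis was possible because the bulk tables hold the averages of each group, and for the same reason no replicate was left out in turn. The lack of single bulk libraries, and of a further scRNAseq library per strain, limits every comparison between groups.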

Other observations

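Hsp90aa1, an inducible heat shock chaperone, was highest in RPE, where the summed immediate-early genes were lowest. It was at 20.6 UMIs per 10,000 in RPE in B6129PF1/J and 20.2 in C57BL/6J, its highest level in any cluster of either library, and at 8.88 and 7.52 over all cells. Smooth muscle cells came next, at 9.32 and 8.67, and melanocytes were low for it too, at 3.83 and 3.66. Over the 12 heat shock genes together, RPE was at 55.3 and 56.0, against 73.0 and 71.2 for all cells. Hsp90ab1, its constitutive relative, was at 6.14 and 5.41 in RPE and at 15.3 and 14.1 over all cells.

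Klf2, a factor known to respond to blood flow in ECs, was at 52.9 and 63.1 in Kdr-low ECs, 28.8 and 43.3 in Kdr-med ECs and 21.8 and 30.7 in Kdr-high ECs, in the order B6129PF1/J, then C57BL/6J. Klf4, which acts with it, had the same order, at 22.3 and 20.3, 13.3 and 14.5, and 10.7 and 9.46. Btg2, which restrains proliferation, was highest in Schwann cluster 13, at 18.4 and 22.5, the cluster that also led for Fos. Btg1, its relative, led in hematopoietic cells in B6129PF1/J, at 10.7, and in stromal cluster 8 in C57BL/6J, at 11.6.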
